A study of Homo sapiens with 2 samples.

Results

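The regions described here are the distal CREB peaks of NGP, a cell line that was established from a human neuroblastoma. They are the peaks whose summit lay more than 10 kb from every transcription start site (TSS) that the authors paired with them, within the 50 kb window of the authors' deposited table. Members were chosen by the peak call and the position of the summit, on chromosomes 1 to 22 and X, and summits in 62 dense windows (1 Mb with at least 10 peaks) were left out. The rule kept 548 of the 5285 deposited peaks, from 1808 outside those dense windows. The others were 251 peaks at a TSS (up to 1 kb), 259 proximal peaks (1 to 10 kb) and 750 peaks with no TSS within 50 kb. The series holds 1 chromatin immunoprecipitation (ChIP-seq) library made with an antibody against CREB and 1 input library, both from NGP cells grown with 20% serum, harvested near confluency, with no treatment named in the labels. Both libraries started from 4 ng of DNA and were selected for sizes of 250 to 450 bp. Peaks measure binding and not expression, so the labelled cell type could not be checked against markers. The total number of reads is not in the files used here. No replicate exists, so nothing below has an error between cultures and no test across peaks was made. Intervals are exact at 95% and cover counting error only.

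CREB is a transcription factor that is phosphorylated by cAMP-dependent protein kinase and by calcium/calmodulin-dependent kinases. It then recruits the coactivators CBP and p300. It binds the cAMP response element (CRE), a palindrome of 8 bases, and also half-sites of that element. Its best-known sites lie just upstream of gene starts, while sites away from starts can lie in enhancers, introns or gene-free DNA. Per the series' design text, CREB targets were sought downstream of CAMKV, a kinase-like protein that binds calmodulin.

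Sequence was at hand only where a distal peak touched a gene start that RefSeq lists and the authors' table does not use for the pairing. This was so for 4 of the 525 members on chromosomes with listed promoters, namely peaks at ACOX3, PDE4C, ARAP1 and LOC124900837. The lines below give the 250 bases before the RefSeq start (GRCh38.p14), read on the gene's strand, for the starts whose upstream bases lie under the peak. Capitals mark a CRE (TGACGTCA) or, where there is none, a CRE half-site (TGACG on either strand, which every full CRE also contains).
ACOX3, chr4:8428449-8428698, minus strand: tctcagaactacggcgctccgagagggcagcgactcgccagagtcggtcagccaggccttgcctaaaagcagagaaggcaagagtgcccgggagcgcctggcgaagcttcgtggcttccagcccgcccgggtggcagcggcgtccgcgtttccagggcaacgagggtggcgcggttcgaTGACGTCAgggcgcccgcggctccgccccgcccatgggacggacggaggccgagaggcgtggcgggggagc
PDE4C, chr19:18224494-18224743, minus strand: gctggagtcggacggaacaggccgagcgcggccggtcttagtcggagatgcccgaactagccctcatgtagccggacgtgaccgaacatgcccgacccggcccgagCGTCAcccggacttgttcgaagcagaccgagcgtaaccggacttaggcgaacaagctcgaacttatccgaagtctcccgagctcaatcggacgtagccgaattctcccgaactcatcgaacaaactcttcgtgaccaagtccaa
ARAP1, chr11:72722341-72722590, minus strand: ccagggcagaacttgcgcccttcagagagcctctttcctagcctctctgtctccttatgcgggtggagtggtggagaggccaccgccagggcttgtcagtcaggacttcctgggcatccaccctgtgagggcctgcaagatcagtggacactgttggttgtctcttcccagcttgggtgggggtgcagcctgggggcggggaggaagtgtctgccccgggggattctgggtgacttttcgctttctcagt

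The ACOX3 sequence is the one with a full CRE. ACOX3 encodes an acyl-CoA oxidase of the peroxisome. The peak at chr4:8428428-8428587 had its summit 18 bp from a second ACOX3 start, 12.3 kb downstream of the TSS in the authors' table. Its fold enrichment over background was 4.56, from 5 fragments (1.62 to 11.7). The CRE at 8428512 to 8428519 began 71 bp before that start and lay 46 bp from the summit.

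PDE4C encodes a phosphodiesterase that degrades cAMP. Its peak at chr19:18224519-18224861 was enriched 7.89-fold (9 fragments, 4.12 to 17.1), and its summit lay 68 bp from 1 of 4 listed PDE4C starts. The half-site began 144 bp before the start, 72 bp from the summit. In the authors' table the nearest TSS of this peak is LOC102725254, at 19.8 kb.

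ARAP1 encodes a GTPase-activating protein for Arf proteins. Its peak at chr11:72722426-72722777 had the highest fold of the 4, 12.8 with 15 fragments (8.40 to 24.7), 256 bp from the RefSeq start. No CRE or half-site is in the sequence above. That sequence covers 165 of the 352 bp of the peak and stops short of the summit, so the other bases were not searched. The peak at LOC124900837 had a fold of 4.82 with 5 fragments and touched only bases after the start. Over all 34961 RefSeq promoters of 300 bases (250 before and 50 after the start), 1.85% hold a CRE and 24.5% a half-site. These are matches of letters and not measured sites.

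Counting up to 1 kb from a listed RefSeq start, 8 of 525 distal summits (1.52%) were near one, against 9 of 249 proximal summits (3.61%). The other 4 were CABLES1, which encodes a CDK5 and ABL1 binding protein (436 bp, fold 4.54), and the uncharacterised loci LOC124904390, LOC101929823 and LOC107987177, at 823 to 906 bp. For CABLES1 too, the paired TSS was another start of the same gene, at 20.8 kb. Most distal peaks were distal by either annotation, with 472 of 525 more than 10 kb from every listed RefSeq start.

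The CRE could also be examined at the genes nearest to the distal peaks. Promoters at the nearest TSS were found for 320 genes, and 4 of them held a full CRE (1.25%, 0.342 to 3.17), close to the 1.85% of all promoters. A half-site was in 25.9% (21.2 to 31.1), beside 24.5% of all. For proximal peaks the CRE share was 4 of 139 genes (2.88%, 0.790 to 7.20). For peaks at a TSS it was 51 of 169 (30.2%, 23.4 to 37.7), an interval that does not overlap the distal one. The 2 shares are of unlike kind. For peaks at a TSS the promoter lies up to 1 kb from the summit, and for distal peaks over 10 kb away. The distal share therefore does not show how many distal peaks hold a CRE themselves. The 4 genes were ACOX3, TRMT44, KCTD8 and UNCX. ACOX3 and TRMT44, a tRNA methyltransferase gene, lie head to head and share 1 CRE, at 8440747 of chromosome 4. Distal peaks lay 12.3 kb downstream of the ACOX3 start and 30.8 kb downstream of the TRMT44 start. KCTD8, a subunit gene of GABA-B receptors, had a peak at 31.7 kb and UNCX, a homeobox gene, one at 40.1 kb, both downstream, with folds of 4.56 and 6.42.

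**Figure D1:**
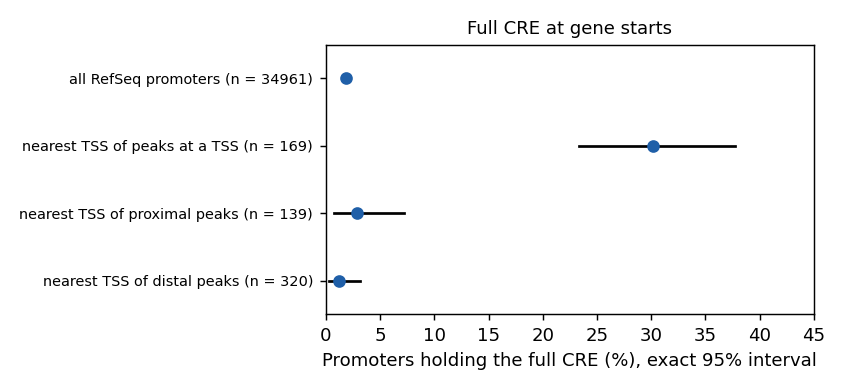
Percent of promoters holding TGACGTCA on either strand (x axis) for all RefSeq promoters and for the nearest TSS of peaks in 3 distance classes, with exact 95% intervals. Genes nearest to distal peaks (1.25%) sit beside all promoters (1.85%), and genes with a peak at the TSS stand at 30.2%. For distal peaks these promoters lie over 10 kb from the summit, so the sequence at the summit is not shown.

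Distal peaks rested on few fragments. The median fold was 4.56 (interval of the median 4.56 to 4.65, quartiles 4.01 to 5.52) and the median width 212.5 bp. The number of fragments at each summit was recovered from the deposited fold and p. Of the 548 members, 192 held 4 fragments, 145 held 5 and 84 held 6. A count of 4 has an interval of 1.09 to 10.2, so single weak peaks cannot be ordered. Few fragments over few background values gave repeated folds: 4.01 occurred in 117 members, 4.82 in 53 and 3.80 in 50. The background, that is the fragments expected at the summit, was 0.246 in 211 members and 0.316 in 123, and ranged from 0.246 to 2.85. It was more than double the median in 52 members (9.49%), whose median fold was 4.90.

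In strength the distal peaks stood with the peaks farther away and below those at a TSS. At most 6 fragments were behind 76.8% of distal peaks (73.1 to 80.3), 76.1% of proximal peaks (70.4 to 81.1) and 79.1% of peaks with no TSS within 50 kb (76.0 to 81.9). Among peaks at a TSS the share was 50.2% (43.8 to 56.5). A −log10 q of 5 was reached by 92 distal peaks (16.8%, 13.8 to 20.2), 20.1% of proximal peaks, 13.6% of those with no TSS within 50 kb and 42.6% of peaks at a TSS (36.4 to 49.0). A fold of 10 was reached by 23 distal peaks (4.20%, 2.68 to 6.23), beside 4.65% of all 1808 peaks outside dense windows. All 4 classes share the same library, and these differences were not tested.

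**Figure D2:**
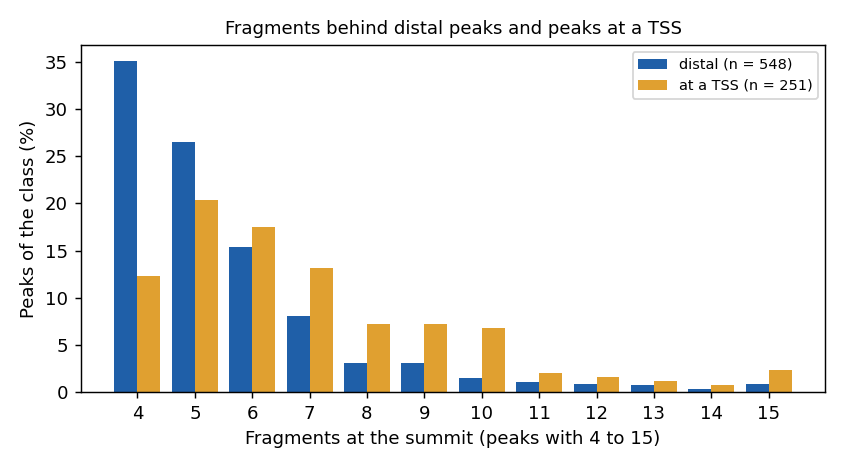
Percent of peaks (y axis) by fragments at the summit (x axis, 4 to 15) for 548 distal peaks and 251 peaks at a TSS. Distal peaks pile up at 4 and 5 fragments, which hold 61.5% of them.

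Distance from the TSS did not order the distal peaks by strength. The median distance to the nearest TSS was 23.3 kb (quartiles 16.6 to 34.1 kb). Members at 10 to 20, 20 to 30, 30 to 40 and 40 to 50 kb numbered 210, 152, 108 and 78, with median folds of 4.56, 4.67, 4.56 and 4.56. A fold of 10 was reached by 7, 10, 4 and 2 of them. Upstream of the nearest TSS lay 243 members (44.3%, 40.1 to 48.6), against 44.4% of proximal peaks and 62.2% of peaks at a TSS (55.8 to 68.2). The threshold cut through like peaks. The 5 members nearest to it (at LOC102723838, TMEM26, RCN3, MIR4771-1 and MIR4500, 10142 to 10215 bp) had folds of 3.80 to 4.82. The 5 peaks just outside (at REV1, AGAP9, PCGF3, DIPK1B and OR1F1, 9787 to 9998 bp) had folds of 3.80 to 7.22.

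**Figure D3:**
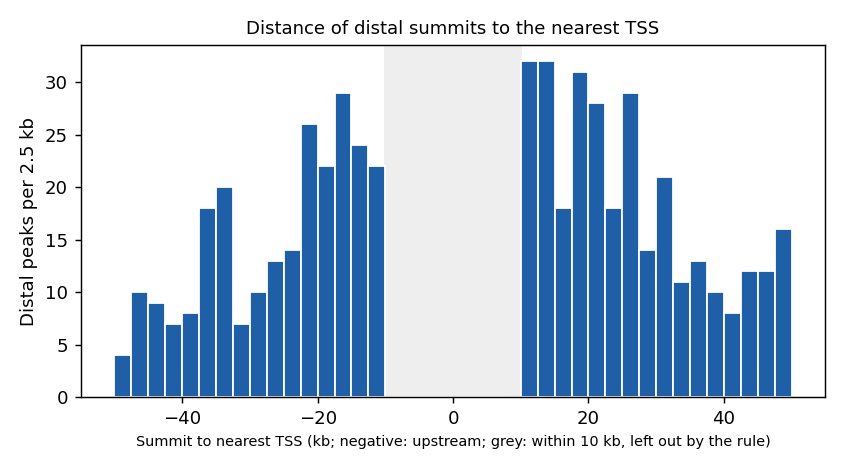
Number of distal summits (y axis, 2.5 kb bins) by signed distance to the nearest TSS (x axis, kb, negative upstream), with the excluded 10 kb on each side in grey. Counts are spread over both sides, with 243 upstream and 305 downstream.

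Per unit of genome, summits at 10 to 50 kb were sparser than those within 1 kb and denser than those beyond 50 kb. The bands here are drawn from RefSeq starts, so their summits are not the same set as the members. Around the starts that RefSeq lists, the territory at 10 to 50 kb was 998 Mb and held 0.592 summits per Mb (0.546 to 0.642). At 1 to 10 kb there were 0.650 per Mb (0.574 to 0.733), beyond 50 kb 0.476 (0.440 to 0.514), and within 1 kb 3.93 (3.43 to 4.49). The intervals of 1 to 10 kb and 10 to 50 kb overlap, while those within 1 kb and beyond 50 kb do not overlap that of 10 to 50 kb. Of the 591 summits in the 10 to 50 kb territory, 63.1% (59.1 to 67.0) lay inside an annotated gene, and genes cover 62.9% of that territory. Inside protein-coding genes lay 47.2% of the summits (43.1 to 51.3), and these genes cover 48.3%. The list of starts holds 82.1% of protein-coding genes outside chromosome 8, and 32 of 242 peaks at a TSS of the authors' table lay more than 10 kb from every listed start, so these distances are upper limits. Assembly gaps between the outermost genes were not removed, which lowers the densities.

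**Figure D4:**
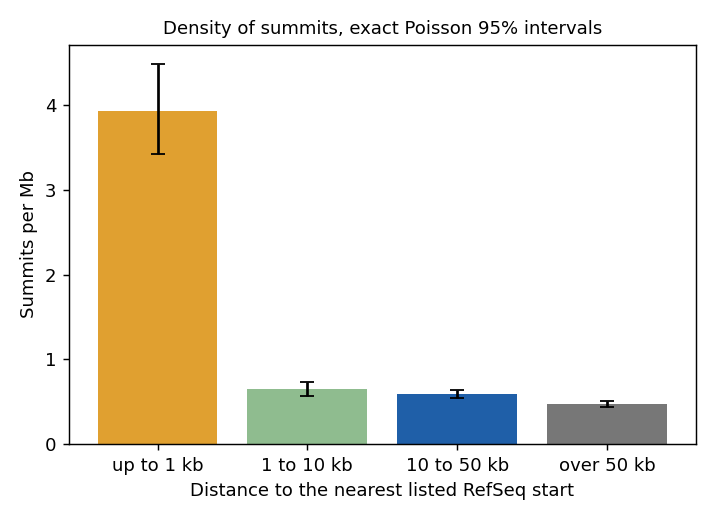
Summits per Mb (y axis) in 4 bands of distance to the nearest listed RefSeq start (x axis), outside dense windows, with exact Poisson 95% intervals. Density is 3.93 within 1 kb and 0.476 to 0.650 in the other bands.

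Members were found on all 23 chromosomes. Chromosome 1 held 59, chromosome 6 held 47 and chromosome 2 held 42. Per 100 Mb outside dense windows the gene-dense chromosome 19 was highest, with 44.8 (28.7 to 66.7). The rule requires a paired TSS within 50 kb, while these rates are over whole chromosomes outside dense windows. The rates therefore also depend on how much of each chromosome lies near a TSS, which was not adjusted for. Chromosomes 6 and 12 had 27.9 and 25.9, and chromosomes X and 21 had 7.10 (3.54 to 12.7) and 6.87 (1.42 to 20.1). The intervals of 6 and 12 overlap that of 19. The median background of the members was 0.344 on chromosome 19 and 0.246 on chromosomes 12, 21 and X. Copy number of these chromosomes in NGP was not measured here.

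By fold, the 15th place was shared, so 16 members form the top. Their folds ran from 12.8 to 226, with 15 to 296 fragments over backgrounds of 0.246 to 0.949. Of these 16, 7 lay in a protein-coding gene, 6 beyond the outermost annotated gene of their chromosome, and 3 elsewhere.

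The strongest covered IGKC, the constant region of the immunoglobulin kappa chain (chr2:88857343-88857694, fold 226, 296 fragments, 263 to 332). IGKC is a gene of antibody-producing B cells. Its nearest paired TSS was MIR4436A, at 45.1 kb. The next lay within CAMK1D, which encodes a calcium/calmodulin-dependent kinase that can phosphorylate CREB (chr10:12760938-12761133, fold 132, 164 fragments, 140 to 191). At 196 bp it was narrower than the median distal peak (212.5 bp) despite its many fragments, and the shape of its signal was not examined. The table pairs this peak with MIR548Q, at 35.7 kb, and not with CAMK1D. The interval of the IGKC peak overlaps that of no other member, while that of the CAMK1D peak overlaps the one at ANHX, the next by fold (99.5 to 143).

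The remaining 6 in protein-coding genes had folds of 12.8 to 20.5. The peak within PCYT1A, the rate-limiting enzyme gene of phosphatidylcholine synthesis, was enriched 20.5-fold (26 fragments, 17.0 to 38.1) and is nearest to SLC51A, at 30.9 kb. The peak within NXN, a thioredoxin-family gene, had a fold of 16.03 with 19 fragments. The peak within RAPGEF1, which encodes an exchange factor for the small GTPase Rap1, had a fold of 15.3 with 18 fragments. Peaks within IGSF9B, an adhesion molecule of inhibitory synapses, and WNT8B, a WNT ligand of the developing forebrain, had folds of 13.7 and 13.6. ARAP1 was described above. Outside annotated genes, the peak nearest to TEX44 on chromosome 2 had a fold of 22.5 (28 fragments) and that nearest to the lncRNA gene LINC01018 on chromosome 5 one of 20.1 (24 fragments).

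Members beyond the outermost annotated gene of a chromosome numbered 7 of 548. They compare with 1 of 259 proximal peaks, 1 of 750 peaks with no TSS within 50 kb and 0 of 251 peaks at a TSS. A peak at a TSS can hardly lie beyond the outermost gene, so that 0 was nearly fixed in advance. On chromosome 12, chr12:133264939-133265304 lay 26.7 kb past the last gene, with a fold of 62.1 and 120 fragments (99.5 to 143). A peak on chromosome 18 (15.5 kb past) had a fold of 37.5 with 72 fragments, and those on chromosomes 1 and 22 had folds of 26.3 and 23.1. The others were on chromosome 13 (fold 13.7), at 9998 to 10394 of chromosome 12 (12.8) and on chromosome 4 (4.56). Their nearest TSS were those of ANHX, PARD6G, PGBD2, RABL2B, LINC01054, WASH8P and ZNF595. Their median fold was 23.1, against 4.56 for the other members, and their median background 0.632 against 0.292. No interval was computed for these backgrounds. A member at 10349 to 10553 of chromosome 18 had a fold of 4.01 with 4 fragments. It is not among the 7, since a lncRNA gene is annotated there. Chromosome ends carry repeated sequence shared between chromosomes, so the assignment of their reads to 1 end is uncertain, and its part in these folds was not tested.

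**Figure D5:**
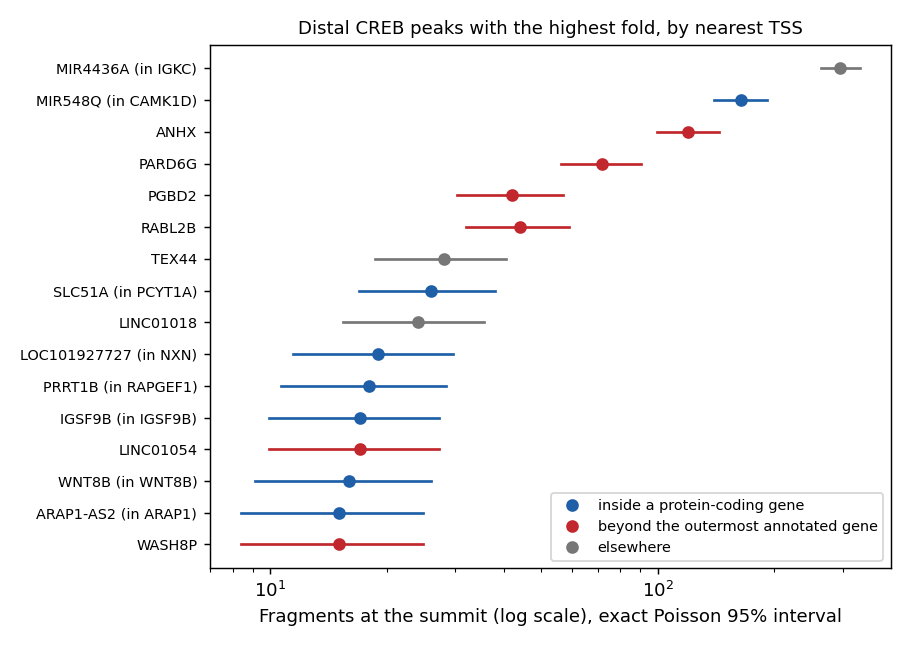
Fragments at the summit (x axis, log scale) with exact Poisson 95% intervals for the 16 distal peaks with the highest fold, named by nearest TSS with the host gene in brackets. The IGKC peak stands apart at 296 fragments, the interval of the CAMK1D peak (164 fragments) overlaps that of the ANHX peak, and the 4 after CAMK1D lie beyond the outermost annotated gene of their chromosome.

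Where a distal peak lay in a protein-coding gene, the nearest TSS was often that of another gene. Of 270 such members, the nearest TSS belonged to the host in 166 (61.5%, 55.4 to 67.3), and in 69 (25.6%, 20.5 to 31.2) the host was not among the symbols that the table pairs with the peak. Besides CAMK1D, NXN and RAPGEF1, these hosts included NT5DC1 (fold 10.3), CACNA1C, the gene of an L-type calcium channel (8.83, 19 fragments, background 1.26), ACAN, the aggrecan gene (8.83), and MTHFD1L, a mitochondrial folate enzyme (8.83). Over all members, the table gave 954 pairs with 872 symbols. The nearest TSS belonged to a protein-coding gene in 361 members (65.9%), a lncRNA gene in 107 and a microRNA gene in 27. A single symbol was paired with 305 members (55.7%). The most symbols, 11, went to a peak within RCN3 on chromosome 19 (fold 3.89), among them several small nucleolar RNA genes such as SNORD33. The next held 7 each: a peak within MVP on chromosome 16 (fold 4.56), paired with MAZ, KIF22 and PRRT2 among others, and one on chromosome 19 near MAN2B1 (4.38), paired with DHPS and WDR83.

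Of the 548 members, 492 had no other member within 10 kb. Counting members alone, the other 56 left 513 separate loci in all. Peaks of the other classes were not counted as neighbours, and no such share was computed for those classes. A chain may therefore go on past the distance limits of the rule. At 5 loci a chain of 3 or more members lay with gaps of at most 10 kb. The most peaks, 7, lay on chromosome 15 near LOC100128108 and the olfactory receptor gene OR4F6 (chr15:101756088-101763967), with summits 1053 to 1558 bp apart, folds of 3.80 to 8.03 and 4 to 9 fragments. A chain of 6 peaks within TTC34 on chromosome 1 had folds of 5.62 to 8.91, 1918 to 9881 bp apart. LPA, the gene of apolipoprotein(a), held a chain of 5 with folds of 4.01 to 6.42, 698 to 5677 bp apart. NBPF14, of a multicopy gene family, and the SNAR small RNA genes of chromosome 19 had 3 peaks each, with folds of 4.56 to 5.32 and 3.80 to 5.54. LPA holds repeated kringle units, and NBPF14 and SNAR genes have near-identical copies, so the place of their reads is uncertain, and its part in the clustering was not tested. Whether the sequence under the chromosome 15 and TTC34 chains is repeated was not examined, so their placement is not secured either.

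Some peaks overlapped short annotated genes (up to 2 kb), looked at after the values were seen. Besides the IGKC peak, 4 overlapped short pseudogenes of abundant messages. These were EEF1A1P6 (fold 7.18, background 0.949), GAPDHP1 (6.67, background 0.949), RPLP0P6 (6.48, background 0.544) and RPL10P16 (4.38, background 0.371). The backgrounds of these 4 peaks were all above the distal median of 0.292, though no interval was computed for a background. Such copies share sequence with their parent genes, so the place of these reads is uncertain, and its part in the folds was not tested. At 4 of 548 (0.730%), the share was not above that of proximal peaks (1.54%) or of peaks with no TSS within 50 kb (1.20%). A peak that overlapped the tRNA gene TRE-CTC1-5, with its summit outside that gene, had a fold of 5.77 with 7 fragments.

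Genes of calcium signalling were the list with the largest share of members paired. Of 35 such genes, 5 were paired with a distal peak (14.3%), beside 2.85% of all 19974 protein-coding genes. PPP3CC, a catalytic subunit gene of the phosphatase calcineurin, was paired with a peak of fold 10.4 (12 fragments) 44.4 kb upstream, which lies within SLC39A14. CAMK2G, a calcium/calmodulin kinase II gene, held a peak of fold 8.03 (9 fragments, 4.12 to 17.1) 25.2 kb into the gene. CAMK1G, of the CaM kinase I family, held one of fold 6.31 at 21969 bp. NFATC1, a transcription factor that calcineurin activates, was paired with 2 peaks 38.2 and 37.2 kb upstream, within ATP9B, with folds of 6.08 and 4.82. PPP3CA, another calcineurin subunit gene, held a peak of fold 4.56. The list was drawn up with earlier results of these data known, 3 of the 5 rest on 5 to 7 fragments per peak, and no test of the list was made.

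Among 42 cAMP and PKA signalling genes, 2 were paired with a distal peak (4.76%), beside 2.85% of all protein-coding genes. Both encode regulatory subunits of the kinase. PRKAR2A held one of fold 4.82 at 22.7 kb and PRKAR1B one of fold 4.56 at 39.5 kb, each with 5 fragments. Among 44 CREB-responsive genes 2 were paired (4.55%). One was BDNF, a neurotrophin gene (fold 4.46, 5 fragments, 24.3 kb upstream). The other was PCNA, the replication clamp gene (3.81, 4 fragments, 39.0 kb downstream and within TMEM230). With 2 genes each, neither list is set apart from the 2.85%. BDNF and CCND1 each had 2 peaks in the 50 kb window. The CCND1 peak 27.7 kb downstream is not a member, since it lay 6.52 kb from the LTO1 start. The second peak of each gene is not described here.

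Of 73 ion channel and synaptic genes, 4 were paired (5.48%), beside 2.85% of all protein-coding genes. SHANK1, a postsynaptic scaffold gene, held a peak of fold 6.84 at 40.2 kb and SCN8A, a sodium channel gene, one of fold 6.42 at 27.3 kb. Peaks lay 27.5 kb upstream of SYT1, a calcium sensor of synaptic vesicles (fold 5.62), and 20.9 kb upstream of GRIN2A, an NMDA receptor subunit gene (5.61). CACNA1C and CACNA1G held a peak without being paired. Such hosting is the second measure. Of all protein-coding genes 1.26% held a distal summit, against 4 of 73 here and 4 of 35 calcium signalling genes. These are the highest host counts of the 13 lists, which differ in length. As a share, 4 of 73 is near 2 of 42 cAMP and PKA signalling genes and 1 of 21 Schwann cell and stromal markers. Of 44 CREB-responsive and 22 adrenergic core regulatory genes, 0 held one. At 1.26%, a count of 0 sets neither list apart. Long genes have more room for a summit over 10 kb from a start, and gene length was not taken into account.

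None of 22 adrenergic core regulatory genes was paired with one, MYCN included, and none of 18 catecholamine and chromaffin genes. At 2.85%, fewer than 1 would be paired in a list of either length, so these counts of 0 set nothing apart. Of 34 neuroblastoma oncogenes and risk genes, 2 were paired (5.88%), and 2 genes do not set that list apart from the 2.85% either. PTPRD, a receptor phosphatase gene, held a peak of fold 4.56 at 48.7 kb, and ARID1B, a chromatin remodeller gene, had one 11.3 kb upstream (4.29, 6 fragments over a background of 0.632). Single genes were paired among the 27 mesenchymal-state genes (MAML2, 4.01), the 65 axon guidance and adhesion genes (PCDH10, 4.01) and the 71 developmental transcription factor genes (SOX2, 4.82, 29.6 kb downstream). KDM5B, a histone demethylase gene, was the other of 2 among 56 chromatin regulators (3.69). In this order the shares paired were 3.70%, 1.54%, 1.41% and 3.57%, near or below the 2.85%. Of 21 Schwann cell and stromal markers and 15 leukocyte markers none was paired, and VWF held a peak of fold 4.01.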

How the data were processed

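The authors aligned reads with Bowtie2 to hg38 and called peaks with MACS2, per the submitters' processing notes. Their versions and settings: not given in the sources used here. The deposited peak list gives 1 call set for the single ChIP library. Its fold enrichment, −log10 p, −log10 q and score are the authors' own values, as deposited in the order of the narrowPeak format, and the score entered no result. A second deposited table pairs peaks with gene starts within 50 kb. The lowest −log10 q was 1.32. Every peak had to pass the caller, so its fold is above background by selection. The input library has no file used here and was not analysed.

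Each summit's fragment count and background were solved from the deposited fold and −log10 p under a Poisson model. All 1808 peaks gave whole counts within 0.001 (relative 1e-05 above a −log10 p of 100), and 17, of them 9 distal, had 2 solutions, of which the closest was taken. The recovery was tested on data simulated from the same Poisson model. That checks the calculation and cannot show that the deposited values follow the model. Intervals are exact Poisson or Clopper-Pearson at 95%. Reads carry no molecular identifiers. Members and gene lists were chosen with earlier results of these data known.

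Named peaks are those with the 15 highest folds, up to 3 genes per list by fold, BDNF, CCND1 and MYCN, members within 10 kb of at least 2 others, the 3 paired with most symbols, 5 on each side of the threshold, and those touching a listed promoter. Every other gene named, among them further list members and host genes, was picked with its values known. The host-gene, short-gene, chromosome-end, promoter-motif and territory counts were added after values were seen. The 13 lists' genes, promoters and gene positions come from RefSeq (GRCh38.p14). Promoters of chromosome 8, which held 23 members, were not used. Python 3.11.15, NumPy 2.4.6, pandas 2.3.3 and SciPy 1.17.1 were used.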

Additional observations from a re-analysis of the deposited data

How the results depend on the processing

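Of 45 alternatives to 5 results, 40 left a count within 1.5 times its value, or a share or median within its 95% interval, and 5 moved it further. Setting the limit at 20 kb left 338 distal peaks. Keeping only peaks with a −log10 q of at least 5 left 92, with a median fold of 7.95, and 5 list genes paired in place of 19. With no dense window left out, 59.8% of the distal summits lay inside a gene in place of 64.4%. The 3 alternatives chosen after seeing the data (over 10 kb from every listed RefSeq start, 1 peak per 10 kb cluster, without peaks beyond the outermost gene) left 495, 513 and 541 peaks. The 495 include 23 members on chromosome 8, where no start was listed and the distance was not measured. The planned search for CRE letters around the summits was not run, since it needs genome sequence, which was not used here. No paired analysis was possible because each group has 1 sample. With 1 library, and 4 to 6 fragments behind most peaks, single weak peaks and the gene pairs that rest on them carry a wide counting interval.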

Other observations

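The nearest TSS was that of a microRNA gene for 27 distal peaks, and several of these lie in protein-coding genes that were not described above. MIR21, the gene of a widely studied oncogenic microRNA, had a peak 35.8 kb upstream, within VMP1, with a fold of 4.11 and 6 fragments. A peak within GSK3B, the gene of a kinase in WNT and insulin signalling, had a fold of 6.19 with 7 fragments, 25.8 kb from MIR6529. A peak within MAP1B, a microtubule-associated protein gene of growing axons, had a fold of 4.81 with 5 fragments, 12.6 kb from MIR4803. The values were known when these 3 genes were picked. The highest background of any distal peak, 2.85, was at ACTN2 on chromosome 1, where 20 fragments gave a fold of 5.46.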
